A study of Mus musculus with 12 samples.

Results

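The cytosolic ribosomal protein genes were taken from the deposited expression table by symbol, as *Rpl* or *Rps* followed by a number with at most 1 trailing letter a, x or l, together with *Rplp0*, *Rplp1*, *Rplp2* and *Rpsa*. This gave 81 of the 43280 genes in the table, 49 of the large and 32 of the small ribosomal subunit. Left out by the same rule were 252 symbols with -ps, which mark pseudogenes, 10 symbols of the *Rps6k* kinases, and 11 near names such as *Rps3a1* and *Rpl22l1*. Of the 81 genes, 78 had at least 1 CPM (reads on the gene divided by the library's total and scaled to a fixed sum) in at least 2 libraries and were tested. The other 3, *Rpl10l*, *Rpl3l* and *Rpl39l*, are copies with a trailing l and are described with their values only.

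Each cytosolic ribosome is built from a small subunit, which reads the mRNA, and a large subunit, which joins amino acids, and nearly every ribosomal protein is present in 1 copy per ribosome. Their mRNAs are among the most abundant of a cell, are short, and typically begin with a terminal oligopyrimidine (TOP) tract, a C followed by a run of C and T at the very start of the transcript. Through this tract the kinase complex mTORC1 and the protein LARP1 control translation and stability of the mRNAs together, while MYC and ETS-type factors act on transcription of ribosomal genes.

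RNA was sequenced from bone marrow-derived macrophages (BMDM), grown from mouse bone marrow with 20 ng/ml M-CSF, of wild type (wt) mice and of *Treml4-/-* mice, both of C57BL6 background, with a deletion of *Treml4*, which encodes a receptor of myeloid cells. Cells received PBS (M0) or lipopolysaccharide (LPS), a bacterial cell wall component, at 100 ng/ml for 8 h (M1-8 h) or 12 h (M1-12 h). Each of the 6 conditions had 2 biological replicates, which made 12 libraries, and the ages and sexes of the mice and whether a mouse gave cells to several conditions were not given in the sources used here. The 8 h and 12 h cells were compared with the same M0 libraries, so those comparisons share their controls.

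Between 48008751 and 58500792 reads were counted per library, and 3 reads corresponded to 0.0513 to 0.0625 CPM. *Treml4* had 0 reads in all 6 *Treml4-/-* libraries and 3.95 to 13.2 CPM in the 6 wt libraries. The 7 macrophage markers summed to 20468 to 27537 CPM at M0, 9951 to 12895 CPM at M1-8 h and 9712 to 10593 CPM at M1-12 h. At M0 the sums were 22962 to 27537 CPM in wt and 20468 to 20694 CPM in *Treml4-/-* libraries. The single markers were split in the test described below, with 2 higher and 3 lower at 8 h, and 3 higher and 3 lower at 12 h. The summed LPS response markers rose from 83.1 to 113.3 CPM at M0 to at least 23593 CPM in every LPS library. Markers of other cells were low. The 4 fibroblast markers summed to at most 2.51 CPM and the 4 erythroid markers to at most 0.13 CPM in any library. The 4 progenitor markers summed to 14.6 to 50.7 CPM at M0, 6.63 to 15.1 CPM at M1-8 h and 1.52 to 2.77 CPM at M1-12 h, so they fell together with the ribosomal protein genes, and their part in the results below was not tested. The 6 neutrophil markers summed to 27.8 to 92.2 CPM, with overlapping ranges at the 3 times. Single markers did move in the test described below. Of the 4 tested, 1 was higher and 1 lower at 8 h, and 1 was higher and 3 lower at 12 h (median log2 -1.02). Their part was not tested either. The 4 B cell markers summed to 4.39 to 6.48 CPM at M0 and to at most 0.69 CPM in every LPS library, so they too were lower with the ribosomal protein genes, and their part was not tested. The 4 dendritic cell markers summed to at most 2.72 CPM and the 5 T cell markers to at most 31.4 CPM, each with 1 gene tested.

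The start of the transcript is the part of these genes that is best known for their control, so it is shown for the genes at both ends of the LPS response. Start regions from RefSeq (GRCm38.p6) were available for 60 of the 81 genes. The 30 bases around the annotated start are printed 5′ to 3′ on the transcribed strand, with the 15 bases before the start first. Capitals mark the run nearest to the start that begins with C, has no C or T before it, and goes on with at least 4 bases that are each C or T. At the first base of a window the base before it was not looked at. Where a gene has several start regions, the most upstream is shown. The first 3 lines are the genes with the deepest fall at 12 h among those with a start region, the next is *Rps6*, a long-used marker of mTORC1 signalling as a protein, and the last 3 are those with the smallest change.
Rpl14, chr9:120571502-120571531, plus strand: gggcgggCCCTCTCTCTTCTCgctgagcgc
Rpl10a, chr17:28328456-28328485, plus strand: gtggcgCCCCCCCagcggccgcaaactgca
Rps18, chr17:33955651-33955680, minus strand: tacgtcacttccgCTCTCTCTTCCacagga
Rps6, chr4:86857353-86857382, minus strand: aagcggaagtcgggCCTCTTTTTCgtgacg
Rpl23, chr11:97782425-97782454, minus strand: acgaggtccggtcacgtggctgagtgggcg
Rpl24, chr16:55966260-55966289, plus strand: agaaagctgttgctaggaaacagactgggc
Rps24, chr14:24490663-24490692, plus strand: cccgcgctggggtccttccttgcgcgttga

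Among these, *Rps18* and *Rps6* hold such a run within 2 bases of the annotated start, those of *Rpl14* and *Rpl10a* begin further upstream, and the windows of *Rpl23*, *Rpl24* and *Rps24* hold none. The window of *Rps24* does hold a stretch of C and T at its start, but it opens with T, so it is left unmarked. *Rpl24* had few reads, as described below, so its place at this end is uncertain. The second start region of *Rps24* and of *Rpl10a* holds no such run. A gene may have several start regions in the table, and the 60 genes had 72. A C followed by at least 4 bases of C or T stood exactly at the annotated start in 13 of these 72 regions (18.1%), against 2.51% of all 32851 start regions. A marked run anywhere within 15 bases of the start was less particular, with 36 of 72 against 33.3% of all regions. The letters CCGGAA, the core of ETS sites, read on both strands of the 300 bases from 250 before to 50 after the start, were found in 34 of the 72 regions (47.2%) and in 14.9% of all regions. The E-box CACGTG, the letters that MYC binds, was found in 8 of the 72 (11.1%) and in 7.15% of all regions. On the other strand CCGGAA can overlap a run of C and T by its first letters, and the matches were counted separately. The genes with the exact start run had a median log2 fold change at 12 h of -1.32 (13 genes), and those without it -1.49 (44 genes). With the C allowed within 5 bases of the start, whatever the base before it, the medians were -1.34 (28 genes) and -1.47 (29 genes). By this count *Rps24* is among the genes with a run. For a marked run in the window of any start region the order was the other way, with -1.52 (31 genes) against -1.42 (26 genes), and no test was run on any of these.

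The 81 genes together held a smaller share of each library after LPS. At M0 they took 4.50% and 4.61% of reads in the wt and 4.67% and 4.49% in the *Treml4-/-* libraries. After 8 h of LPS the wt libraries held 2.59% and 2.38%, and the *Treml4-/-* libraries 2.51% and 2.11%. After 12 h it was 1.64% and 1.73% for wt, and 1.58% and 1.61% for *Treml4-/-* libraries. The ranges of the 3 times were separate, and the mean fell from 4.57% ± 0.09 (SD, n = 4) to 2.40% ± 0.21 and 1.64% ± 0.07, that is 1.91-fold at 8 h and 2.78-fold at 12 h. These are shares of a library, and in bulk RNA fewer cells of a type and less RNA per cell cannot be told apart.

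**Figure D1:**
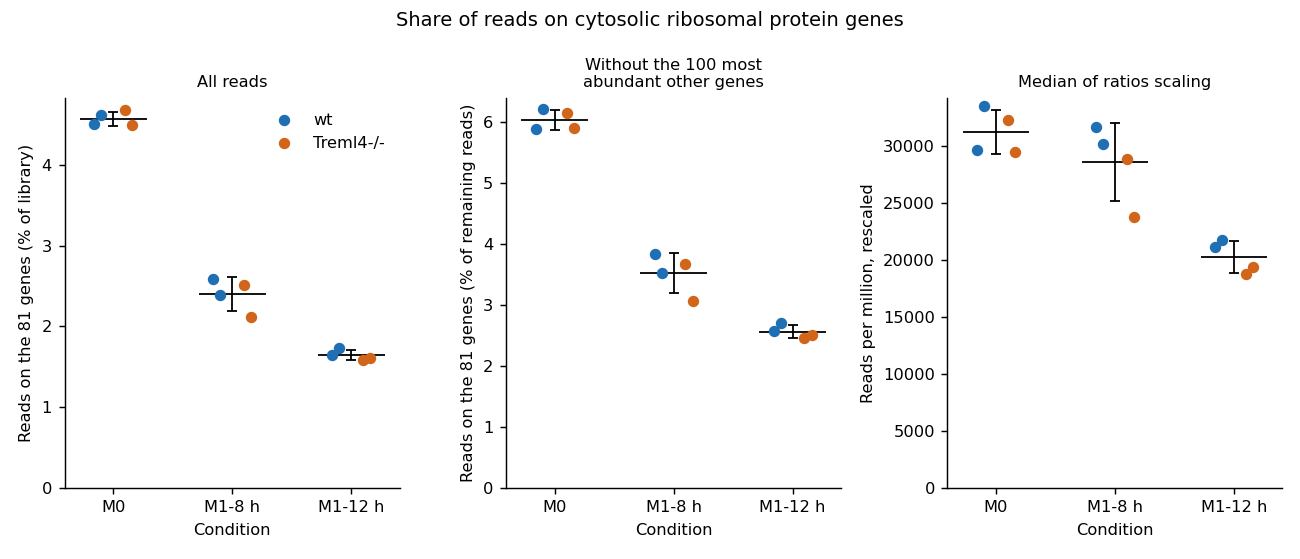
Reads on the 81 ribosomal protein genes by condition, as a percent of all reads (left), as a percent of reads outside the 100 most abundant other genes (middle) and as reads on a common scale after median of ratios scaling (right). Points are libraries (blue wt, orange *Treml4-/-*), and lines and bars are the mean and SD of the 4 libraries of a time. The share of all reads falls at each step from 4.57% to 1.64%, while on the right the M1-8 h libraries overlap those at M0.

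How far the genes fell depended on what they were measured against. The 100 most abundant genes of a library took 27.9% to 30.4% of its reads at M0 and 32.4% to 37.3% after LPS, and the median of all 12086 genes tested changed by -0.72 at 8 h and -0.76 at 12 h on the log2 scale under library totals. Outside the 100 most abundant other genes, the share of the ribosomal protein genes was 6.03%, 3.53% and 2.56% for M0, M1-8 h and M1-12 h. After median of ratios scaling, which sets the typical gene to no change, the genes summed to 31197 ± 1955 (M0), 28552 ± 3421 (M1-8 h) and 20225 ± 1396 (M1-12 h) scaled CPM (SD, n = 4), which is 1.09-fold lower at 8 h and 1.54-fold lower at 12 h. The fall at 8 h was thus within the spread between libraries on that scale, and the fall at 12 h was beyond it.

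Gene by gene, limma was run on log2(CPM + 1) over all 12 libraries. A gene was a DEG, that is, differentially expressed, when its p after Benjamini-Hochberg adjustment was below 0.05 and its fold change reached 1.4. At M1-8 h, 76 of the 78 genes tested were lower than at M0 and 0 were higher, beside 59.8% of all genes tested that were lower and 17.1% that were higher, but under median of ratios scaling only 2 were lower and 1 was higher, beside 31.4% and 31.1%. Their log2 fold changes ranged from -1.36 to -0.13, with a median of -0.89, or 1.85-fold. Relative to the median of all genes this was -0.17, and 62 of the 78 lay below that median. The same 76 had all 4 libraries at M1-8 h below all 4 at M0, as had 64.1% of all genes tested. The medians at this time were -0.92 for the 46 large and -0.86 for the 32 small subunit genes.

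At M1-12 h the ribosomal protein genes had fallen further than the typical gene. Of the 78, 76 were lower than at M0 and 0 higher, beside 60.3% of all genes tested that were lower and 16.3% that were higher. Under median of ratios scaling 47 were lower and 1 was higher, beside 32.6% and 32.7%. No library at M1-12 h reached the M0 range for 76 of the 78, as for 66.6% of all genes tested. The log2 fold changes ranged from -2.20 to -0.09, with a median of -1.47, or 2.77-fold, which was -0.71 relative to the median of all genes, and 76 of the 78 lay below that median. The medians were -1.46 for the large and -1.49 for the small subunit.

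The step from M1-8 h to M1-12 h, which does not involve M0, was in the same direction, and the typical gene hardly moved in it. Here the median of all genes was -0.06 and that of the ribosomal protein genes -0.54. At the minimum fold of 1.4, 53 of the 78 were lower at 12 h and 0 higher, beside 18.7% and 13.5% of all genes, and at any fold 75 were lower, beside 34.2%. With median of ratios scaling the count was 42, beside 17.1% of all genes, and it was 27 under quantile normalization, beside 15.4%. All 4 libraries at 12 h lay below all 4 at 8 h for 72 of the 78, beside 29.6% of all genes tested. Without the first *Treml4-/-* M1-8 h library the count at the minimum fold was 36, beside 18.6% of all genes, and without the second 62, beside 18.8%.

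**Figure D2:**
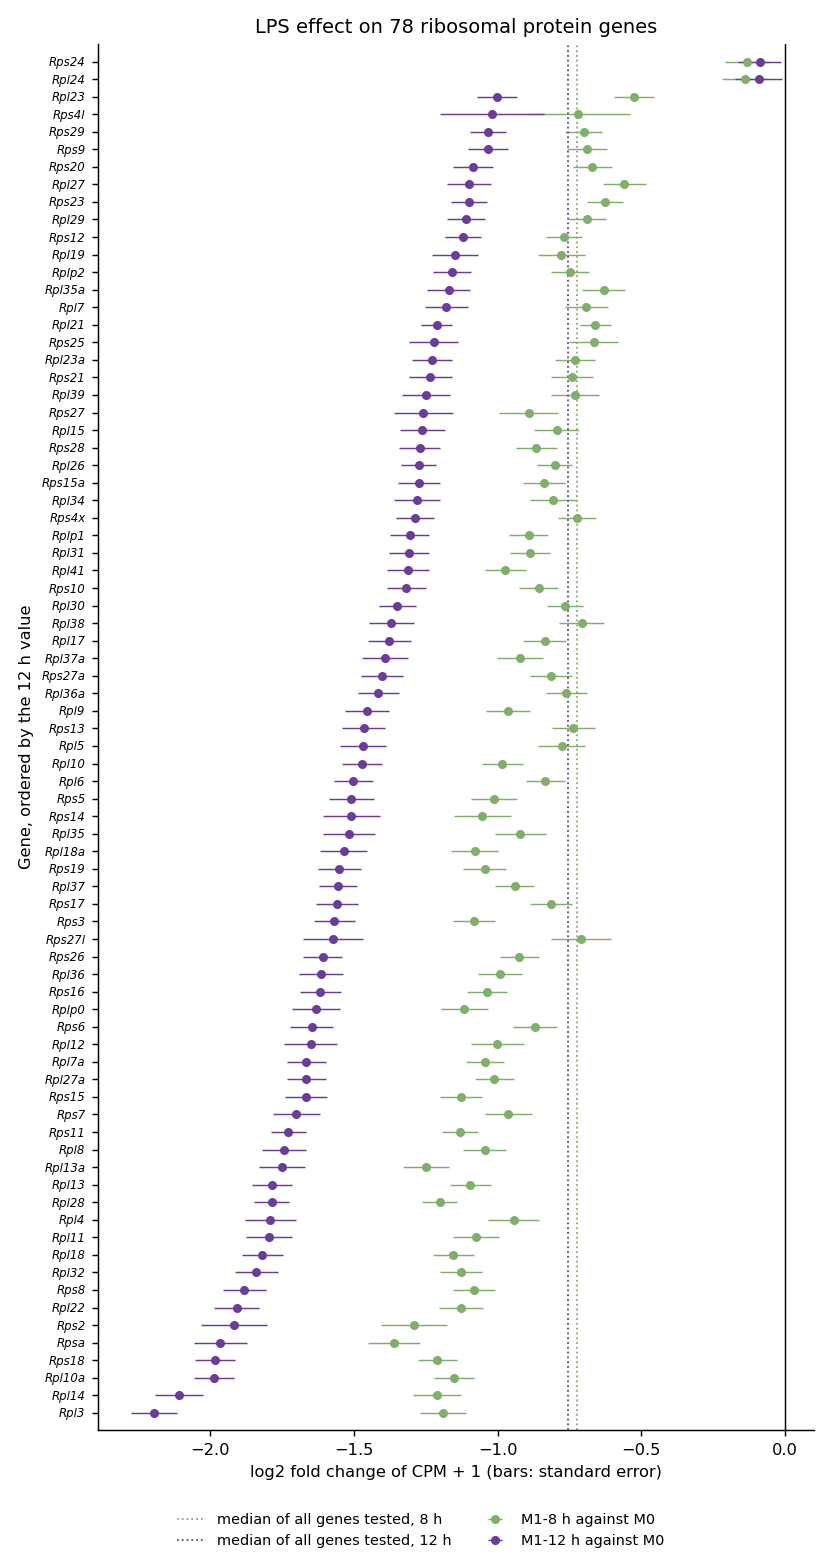
log2 fold changes of CPM + 1 against M0 for the 78 ribosomal protein genes tested, ordered by the 12 h value, with green for M1-8 h and purple for M1-12 h, bars for the standard error and dotted lines for the median of all 12086 genes tested. *Rpl3* is lowest at -2.20, *Rps24* and *Rpl24* stand apart near 0, and the 12 h points lie to the left of the 8 h points in 76 of 78 genes.

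The genes that fell deepest at 12 h were of both subunits. *Rpl3*, which lines the peptidyl transferase center of the large subunit (chr15:80077791-80091868 in GENCODE M21), read 1054 and 942.2 CPM in wt and 1027 and 1013 CPM in *Treml4-/-* M0 cells. It read 220.7 and 207.6 CPM in wt and 225.0 and 224.3 CPM in *Treml4-/-* cells at M1-12 h. All LPS libraries lay below all M0 libraries, and the fall was 4.58-fold (log2 -2.20, SE 0.08, limma adjusted p = 2.66e-10), after 2.28-fold at 8 h. *Rpl14*, a large subunit protein on the solvent side, went from 556.6 ± 17.3 CPM to 241.2 ± 30.8 CPM at 8 h and 128.3 ± 0.93 CPM at 12 h (SD, n = 4), with a log2 fold change of -2.11 at 12 h. *Rpl10a* fell 3.97-fold and *Rps18*, a protein of the small subunit head, 3.96-fold at 12 h.

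*Rpsa*, which sits on the small subunit and was also described as a laminin receptor, and *Rps2*, near the mRNA entry channel, had the 2 deepest changes at 8 h. *Rpsa* read 1573 to 1864 CPM in the 4 M0 libraries, 544.1 to 722.8 CPM at M1-8 h and 404.7 to 444.3 CPM at M1-12 h. Its log2 fold change was -1.36 at 8 h (SE 0.09, limma adjusted p = 4.07e-08) and -1.96 at 12 h. Under median of ratios scaling it was -0.56 and -1.11, so that most of its fall was reached by 8 h only under library totals. *Rps2* changed by -1.29 at 8 h and -1.92 at 12 h, with a wider spread between libraries (SE 0.12). *Rpl13a*, known outside the ribosome from the GAIT complex that silences inflammatory mRNAs in myeloid cells, read 823.9 to 900.9 CPM at M0 and 239.6 to 268.2 CPM at M1-12 h, and changed by -1.25 at 8 h and -1.75 at 12 h. *Rpl28* completed the 6 lowest at 8 h with -1.20. Counts of some of these genes are less certain, since *Rpl13a* overlaps *Gm45713* on the same strand, and *Rpl3*, *Rps18*, *Rpl28*, *Rpl10a* and *Rps2* overlap other genes on the opposite strand.

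The stalk of the large subunit, where elongation factors bind, is made of *Rplp0*, *Rplp1* and *Rplp2*. *Rplp0* was the member with most CPM at M0, at 1786 and 2030 CPM in wt and 2012 and 1804 CPM in *Treml4-/-* cells, and it reached 630.1 and 687.3 CPM in wt and 555.0 and 590.1 CPM in *Treml4-/-* cells at M1-12 h. At 12 h the log2 fold change was -1.63 for *Rplp0*, -1.31 for *Rplp1* and -1.16 for *Rplp2* (SE 0.08, 0.07 and 0.07). With each library scaled to the median ribosomal protein gene, *Rplp0* lay at -0.12 (adjusted p = 0.12), *Rplp1* at 0.21 (adjusted p = 0.0078) and *Rplp2* at 0.36 (adjusted p = 8.1e-05).

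*Rps6*, the substrate of S6 kinase, fell from 500.9 ± 26.7 CPM to 274.3 ± 27.0 CPM and 159.1 ± 2.67 CPM (SD, n = 4), a log2 fold change of -0.87 at 8 h and -1.65 at 12 h. *Rpl5* and *Rpl11*, which as free proteins with 5S RNA bind MDM2, changed by -1.47 and -1.80 at 12 h. *Rps3*, also known as a partner of NF-kB, and *Rps19*, the gene most often mutated in Diamond-Blackfan anaemia, changed by -1.57 and -1.55. *Rpl22*, which has a paralog in *Rpl22l1*, changed by -1.91, while *Rpl22l1* changed by -0.90. All of these were DEG at both times under library totals, except *Rpl22l1* at 8 h (log2 -0.36). Under median of ratios scaling none of them was called at 8 h, where *Rpl5* was at 0.02, *Rps6* at -0.07 and *Rpl22* at -0.33.

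A single abundant member stood apart from all others. *Rps24*, a small subunit protein mutated in some patients with Diamond-Blackfan anaemia (chr14:24487125-24496959), read 666.2 and 579.4 CPM in wt and 544.9 and 653.0 CPM in *Treml4-/-* cells at M0. At M1-8 h it read 526.2 and 530.7 CPM in wt and 589.4 and 579.7 CPM in *Treml4-/-* cells. At M1-12 h it read 544.8 and 629.4 CPM in wt and 561.9 and 557.6 CPM in *Treml4-/-* cells. The 3 times overlapped, and the log2 fold change was -0.13 at 8 h (SE 0.08, adjusted p = 0.123) and -0.09 at 12 h (SE 0.08, adjusted p = 0.286), neither past the threshold.

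As the other members fell, the place of *Rps24* among them changed. It took 1.34% of the reads on the 81 genes at M0, rank 28, then 2.34% at M1-8 h, rank 8, and 3.49% at M1-12 h, rank 2 behind *Rplp0*. With each library scaled to the median ribosomal protein gene it rose by 0.77 at 8 h (adjusted p = 3.65e-06) and by 1.43 at 12 h (adjusted p = 1.16e-08). Under median of ratios scaling it was the only member called higher, by 0.67 at 8 h and 0.76 at 12 h. Under quantile normalization its change was -0.37 and -0.23 instead (adjusted p = 0.0022 and 0.032), and with correction for GC content and length -0.38 and -0.26, each below the minimum fold. Its direction thus depended on the scaling. In GENCODE M21 no other gene overlaps *Rps24* on either strand.

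**Figure D3:**
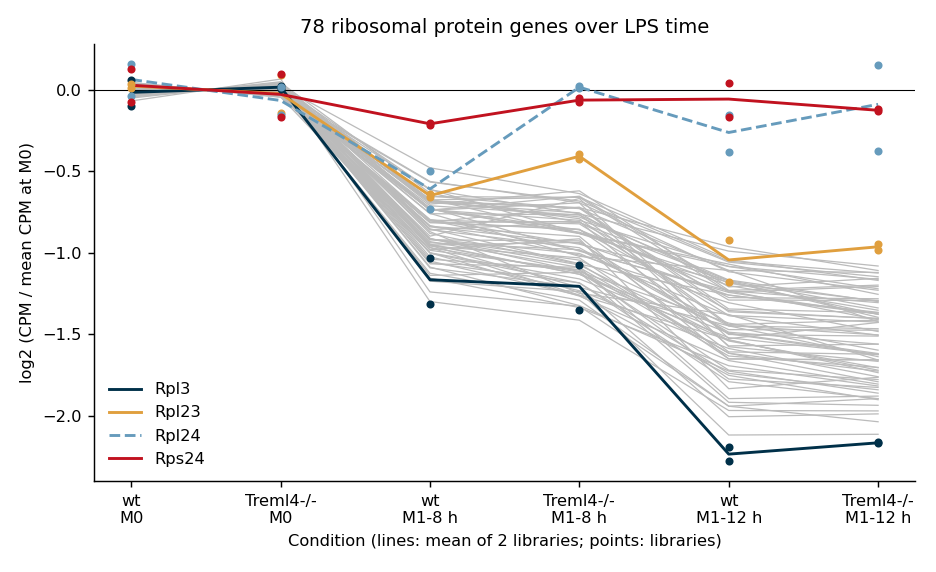
log2 of CPM over the mean CPM at M0 for the 78 ribosomal protein genes, with a line for the mean of the 2 libraries of each condition in the order wt and *Treml4-/-* at M0, M1-8 h and M1-12 h, and library points for 4 coloured genes. *Rps24* stays within the range of its M0 libraries or just below it, *Rpl23* and *Rpl3* mark both ends of the other abundant genes, and *Rpl24* rests on about 1 CPM.

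Of the other genes with small changes, *Rpl23*, also known as an MDM2 binder, read 484.1 to 568.1 CPM at M0, 338.8 to 406.7 CPM at M1-8 h and 236.4 to 281.9 CPM at M1-12 h. It was 1.44-fold lower at 8 h and 2.0-fold lower at 12 h, a fall that was smaller than that of the median member by 0.37 and 0.52 (adjusted p = 0.00052 and 3.12e-05). *Rps29* and *Rps9* changed by -1.03 each at 12 h. *Rpl27*, *Rps23* and *Rpl35a* were among the 6 highest at 8 h, with -0.56, -0.62 and -0.63, and reached -1.10, -1.10 and -1.17 at 12 h. For *Rpl23*, *Rpl27*, *Rps23* and *Rpl35a* the sign at 8 h turned under median of ratios scaling, with 0.27, 0.24, 0.17 and 0.17.

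Measured against the median member, the members did not all fall to the same extent. The scaling uses the members' own median, so members on both sides of it are given by the method. At 8 h 21 fell more and 21 less than the median member at an adjusted p under 0.05, beside 32.5% and 46.8% of all genes on that scale. At 12 h 21 fell more and 34 less, beside 17.5% and 69.9%. Among members past that adjusted p at both times, 17 fell more at both, 20 fell less at both and 0 changed side, in comparisons that share the M0 libraries. Members not past it at both times are left out of this count, and the share over all genes was not counted. With the minimum fold of 1.4, *Rps24* and *Rpl24* stood above the median member at both times, and at 8 h they were the only 2 called, beside 37.5% of all genes higher and 24.1% lower. At 12 h *Rpl23* and *Rps4l* were also above it, and *Rpl3* and *Rpl14* were below it, by 0.68 and 0.59, beside 60.8% higher and 13.3% lower. The value of *Rps4l* rests on the 1 CPM added to a gene of few reads, since its mean went from 4.23 CPM at M0 to 1.55 CPM at M1-12 h, and its change on the deposited log2 scale was -1.43, close to the median member.

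*Rpl24* was counted at only 0.67 to 1.24 CPM in all 12 libraries, against a median of 551.1 CPM over the members at M0. Its position overlaps *Gm28037* on the same strand, so its counts are uncertain and its small changes (-0.14 at 8 h, -0.09 at 12 h) say little about the mRNA. The genes with a trailing l were low too. *Rps27l*, a paralog of *Rps27*, read 50.4 to 55.0 CPM at M0, 27.5 to 38.3 CPM at M1-8 h and 15.8 to 19.7 CPM at M1-12 h, and changed by -0.71 and -1.57. *Rps4l*, annotated as a transcribed processed pseudogene, read 2.96 to 5.56 CPM at M0 and 1.16 to 1.81 CPM at M1-12 h, and reads of *Rps4x* could be split with it. *Rpl10l*, a testis paralog of *Rpl10*, had 0 reads in every library. *Rpl3l*, known from muscle, read 0.12 to 0.33 CPM and *Rpl39l*, known from testis, 0.04 to 0.92 CPM, both under the filter.

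In CPM per kilobase of transcript, *Rplp1* was highest at M0 (2153), followed by *Rpl10* (1543) and *Rplp0* (1405). The lowest tested were *Rpl24* (1.64), *Rps4l* (4.48) and *Rps15a* (76.8), whose length was taken from a long annotated transcript. *Rplp1* was still highest at M1-8 h (1161) and M1-12 h (868.9), and *Rps29* moved from rank 6 to 3 and 2. Across the 81 genes the order at M0 and at M1-12 h had a Spearman rho of 0.89, as a description over genes that share libraries. The change at 12 h was only weakly related to transcript length (Spearman rho -0.18), GC content (-0.14) or the level per kilobase at M0 (-0.22) across the 78 genes tested. With the mean CPM at M0, not divided by length, rho was larger in size at -0.35. It was -0.32 without *Rps24* and the tested genes under 10 CPM.

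Within each genotype, 75 of the 78 were lower at 8 h in wt and 75 in *Treml4-/-* cells, beside 60.6% and 58.1% of all genes, with medians of -0.85 and -0.92. At 12 h it was 76 in each, beside 60.4% and 59.6%, with medians of -1.43 and -1.46. Across the 78 genes the 12 h effects in wt and in *Treml4-/-* cells, which come from separate libraries, had a Pearson r of 0.96, and 0.94 over the 75 left without *Rps24* and the 2 tested genes under 10 CPM. These values describe genes, which are not replicates. The difference of the effect between genotypes was tested as an interaction and called 0 of 78 genes at 8 h and 0 at 12 h, beside 0.00827% of all genes at each time, with lowest adjusted p of 0.729 and 0.999, and voom on the recovered reads also called 0. At an unadjusted p under 0.05 there were 2 lower and 1 higher at 8 h, beside 2.39% and 4.28% of all genes, and 0 at 12 h, beside 1.44% and 2.38%.

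**Figure D4:**
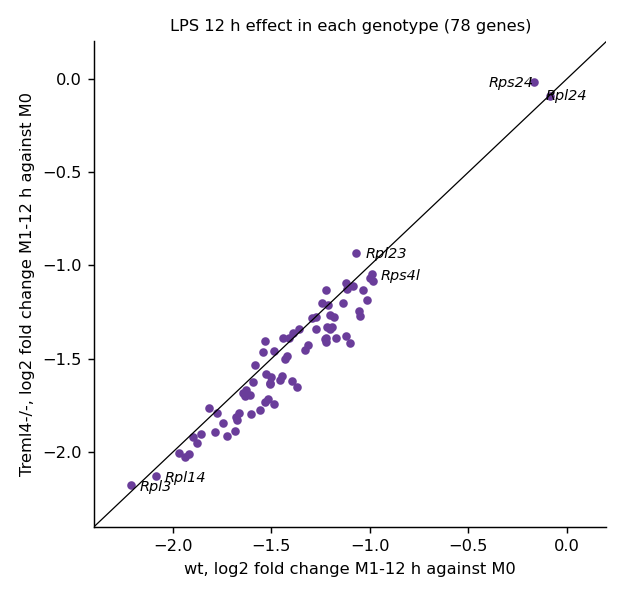
log2 fold change of CPM + 1 at M1-12 h against M0 in wt (horizontal) and *Treml4-/-* cells (vertical) for the 78 ribosomal protein genes, with the line of equal effects. The points follow the line from *Rpl3* near -2.2 to *Rps24* and *Rpl24* near 0.

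Between genotypes at the same time, none of the 78 ribosomal protein genes tested passed. Of the 78, 0 were called at M0, M1-8 h and M1-12 h, at any fold and by voom as well, beside 0.0993%, 0.091% and 0.132% of all genes tested. At an unadjusted p under 0.05 there were 0 at M0, where 1.09% of all genes were lower and 2.26% higher, and 0 at M1-12 h, where these were 2.08% and 5.47%. At M1-8 h there were 7 lower and 2 higher, beside 5.77% and 15.2%. The median log2 difference (*Treml4-/-* minus wt) was 0.00 for M0, -0.12 for M1-8 h and -0.08 for M1-12 h, and that of all genes 0.03, 0.07 and 0.05. Under median of ratios scaling the median of the 78 was -0.25 at 8 h and -0.17 at 12 h. With GC and length correction it was -0.06 and -0.04, and under quantile normalization -0.12 and -0.08. At M1-12 h 64 of the 78 genes were lower in *Treml4-/-* cells and 14 higher under library totals. The median there stayed between -0.13 and -0.04 when 1 library was left out. At M1-8 h 64 of the 78 genes were lower in *Treml4-/-* cells and 14 higher, but 1 library decided this direction. Without the second *Treml4-/-* M1-8 h library, whose share of 2.11% on these genes was the lowest at that time, the median was 0.02, and without the first it was -0.24. Its share of mitochondrial-encoded reads was 1.11%, against 0.517% to 0.811% in the other 3 libraries of that time, and the part of this in the difference was not tested. Progenitor marker sums at M0 were higher in *Treml4-/-* (37.8 to 50.7 CPM) than in wt libraries (14.6 to 33.7 CPM).

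*Rpl39l*, under the filter and singled out after its values were seen, was the 1 of 80 members with reads whose 6 *Treml4-/-* libraries (29 to 54 reads, 0.60 to 0.92 CPM) all lay above the 6 wt libraries (2 to 27 reads, 0.04 to 0.52 CPM). This held for 17 of 22793 genes with reads, and the reverse for 8. In the fit without a filter its log2 difference was 0.51 (M0), 0.71 (M1-8 h) and 0.45 (M1-12 h), with unadjusted p of 0.0207, 0.00463 and 0.0334 and limma adjusted p of 1, 0.525 and 1, so it did not pass the test at any time.

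The ends of these distributions were small against their errors. At M0 they ran from *Rpl6* (-0.09), *Rpl13* (-0.09) and *Rpl37* (-0.07) to *Rpl39* (0.09), *Rpsa* (0.10) and *Rps2* (0.13, SE 0.16). At M1-8 h *Rps14* read 390.1 and 410.1 CPM in wt and 337.6 and 278.1 CPM in *Treml4-/-* cells, a log2 difference of -0.38 (SE 0.14, adjusted p = 0.184). *Rplp0* (-0.30) and *Rps27* (-0.28) were next, and *Rpl5* (0.23), *Rpl23* (0.24) and *Rpl24* (0.30) were at the other end. At M1-12 h *Rps27* (-0.31, SE 0.15, adjusted p = 0.687), *Rps14* (-0.28) and *Rpl34* (-0.22) were lowest and *Rpl24* (0.08), *Rpl23* (0.09) and *Rpl5* (0.10) highest.

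**Figure D5:**
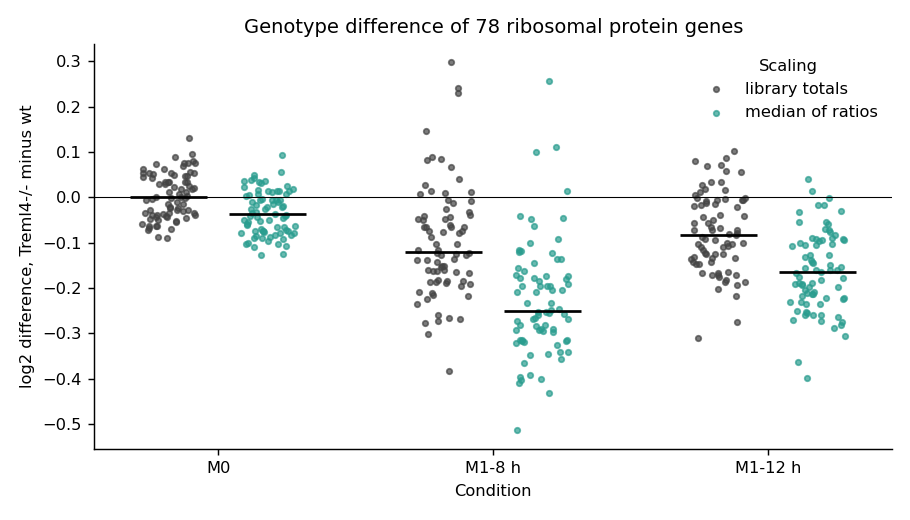
log2 difference of *Treml4-/-* minus wt for the 78 ribosomal protein genes at M0, M1-8 h and M1-12 h, each point a gene, under library totals (grey) and median of ratios scaling (green), with bars for the medians. The medians under library totals are 0.00, -0.12 and -0.08, and none of the genes is called at any time.

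Written lists of related genes were counted in the same fit, beside the same shares of all genes as above, and between genotypes 0 genes of these lists were called. Of 7 ribosomal proteins whose symbols fall outside the rule, 6 were lower at 8 h and 7 at 12 h (0 and 2 under median of ratios scaling). *Gnb2l1* (-1.75 at 12 h), which encodes the small subunit protein RACK1, and *Rpl7l1* (-1.42) were lowest, and *Rpl22l1* changed by -0.90. Of 22 translation factors and other mRNAs with a TOP tract, 19 were lower at 8 h and 22 at 12 h, with a median of -1.72 at 12 h. Under median of ratios scaling 6 were lower and 2 higher at 8 h and 16 were lower at 12 h. Their ends at 12 h were *Nap1l1* (-2.76), a histone chaperone, and the initiation factor *Eif4b* (-2.68), against the poly(A)-binding protein gene *Pabpc1* (-0.62) and *Vim* (-0.53), the intermediate filament vimentin. *Eef2*, the translocation factor of the ribosome, went from 4279 to 4772 CPM at M0 to 853.0 to 916.7 CPM at M1-12 h.

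Most genes that build ribosomes were lower too. Of 44 ribosome biogenesis factors, 42 were lower and 1 higher at 8 h, and 43 lower and 0 higher at 12 h, with medians of -1.55 and -2.21, and of -0.81 and -1.46 under median of ratios scaling, where 31 and 39 were lower. *Wdr12* and *Utp20*, which act in the maturation of the large and small subunit, were lowest at 12 h with -3.73 and -3.72, and *Heatr1* (-0.74) and *Rcl1* (-0.33, adjusted p = 0.03) highest. In 21 genes around mTORC1 and MYC, 7 were higher and 11 lower at 12 h, against 10 higher and 6 lower under median of ratios scaling. *Deptor*, an mTOR inhibitor, changed by -4.04, and *Myc* read 7.48 to 11.3 CPM at M0 and 0.08 to 0.23 CPM at M1-12 h (log2 -3.13). *Mxd1*, a MAX partner that opposes MYC, read 27.8 to 33.1 CPM at M0 and 1054 to 1140 CPM at M1-12 h (log2 5.16), and *Eif2ak2*, the kinase PKR, changed by 3.20. *Larp1*, the TOP tract binder, chosen here after its values were seen, read 130.8 to 150.3 CPM at M0, 593.2 to 657.3 CPM at M1-8 h and 253.9 to 305.5 CPM at M1-12 h, a log2 change of 2.12 and 0.91.

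Of 76 mitochondrial ribosomal protein genes tested, which encode the ribosome inside mitochondria, 66 were lower and 1 higher at 8 h, and 67 lower and 1 higher at 12 h. On the median of ratios scale 24 and 39 were lower and 8 and 5 higher. Their median of -1.06 at 8 h and -1.35 at 12 h moved less between the 2 times than that of the cytosolic genes, and the difference was not tested. *Mrpl12* (-2.54) and *Mrpl57* (-2.48) were lowest at 12 h, and *Mrps18c* (0.40) and *Mrpl52* (0.49) highest. The 31 proteasome subunits, another abundant set built in fixed proportions, had medians of 0.16 and 0.06, 4 higher and 1 lower at 8 h, and 5 higher and 2 lower at 12 h, but 25 and 27 higher and 0 lower under median of ratios scaling. *Psma4* (1.49) and *Psma5* (1.09) were highest and *Psmc3* (-0.56) and *Psmb1* (-0.55) lowest at 12 h.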

How the data were processed

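RNA of BMDM of 2 genotypes at 3 times was measured in 12 libraries (poly(A) selection, stranded, paired-end, 126 bp). Per the labels and the study's methods, the authors used STAR, the build mm10 and a workflow that includes Subread. The deposited values are log2 CPM, which from the values hold a prior count of 0.25 reads. Whether counting used strand was not given in the sources used here, so reads of overlapping antisense genes may be mixed. Reads that match several copies are a further limit, since ribosomal protein genes have many pseudogenes. A CPM table had been assumed, and the log2 CPM were turned back into CPM and reads, which were whole numbers within 0.01 for 100% of values, so counting error is known for each value. No column was left unused.

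limma 3.58.1 (R 4.3.3) was fitted to log2(CPM + 1) of all 12 libraries with a mean for each condition and a trended prior, on the 12086 genes that reached 1 CPM in 2 libraries or more, with Benjamini-Hochberg adjustment over all of them. This scale understates changes of low genes. The fit was also run on simulated reads in which few genes changed. That setting does not cover a shift of most genes, as seen here after LPS under library totals. Replicate libraries differed by more than counting noise (chi-square over its degrees of freedom at least 11.3 on all genes) and were kept as separate samples. Positions, lengths and GC content came from GENCODE M21 (GRCm38), which held all 81 genes. The genes were named by a rule, namely the 6 highest and 6 lowest at each LPS time, the 3 at each end of each genotype comparison, those with most and fewest reads per kilobase, all with a trailing l, and a few with known roles. Members, lists, rule and tests were chosen with earlier results of these data known. *Eef2* and *Larp1* were chosen after their values were seen. From each list the 2 highest and 2 lowest were named, except for 1 gene that is not reported here. Alternatives were the pseudocount, filters, scalings, GC and length correction, trend, blocks and leaving out each library. Voom on the recovered reads and scaling to the median member were chosen after seeing the data. Python 3.11.15, numpy 2.4.6, pandas 2.3.3 and matplotlib were used.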

Additional observations from a re-analysis of the deposited data

How the results depend on the processing

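Several choices moved counts or signs. Under median of ratios scaling the genes called lower were 2 at 8 h and 47 at 12 h, with 1 higher at each time, and M0 held 1.09 times (8 h) and 1.54 times (12 h) the reads of these genes. Outside the 100 most abundant genes these ratios were 1.71 and 2.35. From 8 h to 12 h the count lower was 27 under quantile normalization, beside 15.4% of all genes, and 30 with GC and length correction, with or without the replicate block, beside 18.1% of all genes with it. Signs turned under median of ratios scaling for 27 of the 78 genes at 8 h, 6 of them past the adjusted p, and for 2 at 12 h. Among the genes named, these were *Rpl23* (0.27), *Rpl24* (0.24), *Rpl27* (0.24), *Rpl35a* (0.17), *Rpl5* (0.0206), *Rplp2* (0.0512), *Rps23* (0.17), *Rps24* (0.67), *Rps27l* (0.0722), *Rps29* (0.10) and *Rps9* (0.11) at 8 h, and at 12 h *Rpl24* (0.33) and *Rps24* (0.76). Under quantile normalization they turned for *Rpl24* (0.33 at 8 h, 0.45 at 12 h) and *Rps4l* (0.10 at 8 h). Among values that were not called, *Rpl23* between genotypes at M1-12 h was -0.0018 under median of ratios scaling and -0.0404 to 0.2122 when 1 library was left out. Leaving out 1 library also gave -0.0535 to 0.2145 for *Rpl24* in that comparison, -0.0194 to 0.1146 for *Rpl24* and -0.0093 to 0.0947 for *Rps24* from 8 h to 12 h, and -0.0271 to 0.2178 for *Rpsa* between genotypes at M0. The cause was not tested.

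With the replicate number as a block, the counts lower were 76, 76 and 53, as without it, and the block moved no other count. A block for genotype and number together gave the same 3 counts. Correlations of the deviations of same-numbered libraries of both genotypes were -0.26 (M0), 0.30 (M1-8 h) and 0.06 (M1-12 h), and those of the same genotype across times were 0.12 (M0 with 8 h), 0.06 (M0 with 12 h) and 0.41 (8 h with 12 h) for wt, and 0.46, -0.20 and -0.27 in the same order for *Treml4-/-*. Not every pair was over 0.1, and the numbers were not taken to pair the samples. Leaving out 1 library gave 75 to 76 lower at 8 h, 76 at 12 h and 36 to 62 from 8 h to 12 h, and turned the genotype median at M1-8 h (-0.24 to 0.02). Pseudocount, filters, trend, the libraries in the fit, the deposited log2 values and voom left the counts within 1 of those given. Genotype and interaction counts were 0 under every alternative run. Counting error limits only genes near 1 CPM.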

Other observations

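The 5 genes outside the family whose log2(CPM + 1) followed the mean of the ribosomal protein genes most closely over the 12 libraries were *Eef1b2* (Pearson r of 0.999), *Gnb2l1* (0.998), *Slc25a3* (0.998), *Cct7* (0.998) and *Npm3* (0.997). They encode an elongation factor subunit, RACK1 of the small subunit, the mitochondrial phosphate carrier, a chaperonin subunit and a nucleoplasmin. Such values are common in these libraries, since 3772 genes tested outside the family had an r over 0.9. Of the 78 members, 76 did, but each member is itself part of that mean, so the 2 counts are not alike. The 2 members below were *Rps24* (0.37) and *Rpl24* (0.30). *Npm3* fell most, from 17.6 CPM at M0 to 3.84 CPM at M1-8 h and 0.83 CPM at M1-12 h.

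The 252 pseudogene symbols left out by the rule held 0.0436% to 0.0488% of reads at M0, 0.0201% to 0.0268% at M1-8 h and 0.0159% to 0.0173% at M1-12 h, so that their share fell 2.74-fold by 12 h, beside 2.78-fold for the 81 genes. Among the T cell markers, 1 of 5 was tested. It was *Lck*, which rose at 8 h (log2 3.61) and at 12 h (1.89).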
